A study of Arabidopsis thaliana with 6 samples.

Results

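The genes described here are 7 Arabidopsis thaliana genes used as markers of root tissues: AT1G62500 and AT1G09750 for the cortex, AT1G61590 and AT3G22620 for the endodermis, AT5G66390 for the endodermis and stele, AT5G51890 for the xylem, and PYK10 (AT3G09260) for the root as a whole. They are 7 of the 13286 genes that the array reads through a probe set with 1 named gene matched to the RefSeq gene table. A probe set is the group of short probes with which the Affymetrix ATH1 array reads 1 transcript. Each of the 7 genes has 1 such probe set, and none of these carries a suffix that marks possible cross-hybridisation. The set was selected on its difference between the treated and control seedlings of this series, which was known when the genes were picked. Levels and changes of the 7 genes are therefore given as a description, with no p-value.

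Whole seedlings of the Columbia ecotype were compared after 10 days on 100 µM scutellarin, a flavone glucuronide of skullcaps and other plants, or on the solvent alone (mock). Both groups received 1% DMSO on filter paper from sowing, with 2 days at 4 °C in the dark followed by growth at 25 °C under 12 h of light per day. Each group had 3 arrays from independent experiments, with 100 seedlings pooled per sample, so an array averages over many plants and over root and shoot together. Per the labels no tissue was dissected, and the numbers of cells of each type were not measured. In such bulk samples, fewer cells of a type and less RNA per cell cannot be told apart. Neither can be told from a changed share of root in the seedling, or from RNA of the same genes in the shoot.

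A root is built of concentric layers. The cortex lies beneath the epidermis and surrounds the endodermis, the layer that seals its walls with a lignin band (the Casparian strip) and later with suberin, a waxy polyester, and so controls what reaches the stele with its xylem and phloem. The Casparian strip is laid down by peroxidases at a site marked by membrane scaffold proteins, and a peptide, its receptor kinase and a cytoplasmic kinase check that the band is closed. PYK10 encodes a beta-glucosidase stored in ER bodies, compartments of the endoplasmic reticulum that are abundant in roots of the cabbage family.

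The 2 cortex markers were lower in seedlings grown on scutellarin, by 2.23-fold and 2.28-fold, and the other 5 markers were higher, from 1.66-fold for the endodermal kinase gene AT1G61590 to 3.24-fold for the endodermal gene AT3G22620. All 7 genes passed the filter on dim probe sets, and all 7 were called in limma at an adjusted p under 0.05 (5 higher, 2 lower). Over all 15923 probe sets tested, 19.4% were called, 10.3% as higher and 9.11% as lower. The mock and scutellarin arrays did not overlap at any of the 7 genes, as they did not at 37.1% of all probe sets tested. Since the contrast was used to pick the genes, nothing is read from these counts. The median log2 change was 0.99 over the 7 genes and -0.04 over all probe sets tested, with a range of -1.19 to 1.70 among the 7.

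**Figure D1:**
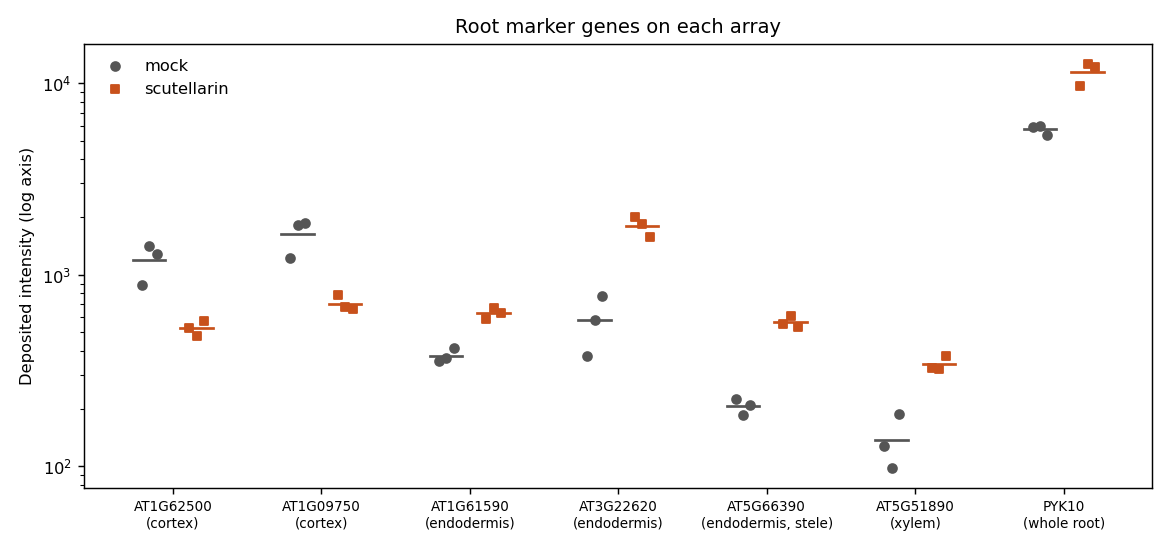
Deposited intensity on a log axis for each of the 7 root marker genes, with 1 point per array (circles for mock, squares for scutellarin) and a bar at the mean of each group of 3. The scutellarin points lie below the mock points for AT1G62500 and AT1G09750 and above them for the other 5 genes, with no overlap; levels of different genes are read by different probes and are not comparable.

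The tissues are taken from the outside to the inside, beginning with the cortex. AT1G62500 encodes a small proline-rich protein with a lipid transfer domain, and its promoter is a common reporter of the cortex. Its intensity on the mock arrays was 884, 1409 and 1288, and on the scutellarin arrays 527, 477 and 577, in the order of their replicate numbers. Mock replicate 1 was the lowest of the mock arrays and still stood 1.53 times above the highest scutellarin array. The group means were 1194 ± 275 and 527 ± 49.9 (SD, n = 3), a log2 change of -1.16 ± 0.18 (SE), and 1.43% of all probe sets tested had a lower value.

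AT1G09750 encodes a secreted protein of the aspartyl protease family. Its intensity was 1229, 1809 and 1869 in the mock arrays and 783, 677 and 659 in the scutellarin arrays. Mock replicate 1 was again the lowest mock array. The means were 1635 ± 354 and 706 ± 66.9 (SD, n = 3), and the log2 change was -1.19 ± 0.17 (SE). The log2 difference between AT1G09750 and AT1G62500 within an array averaged 0.46 ± 0.09 in mock and 0.42 ± 0.20 with scutellarin (SD, n = 3), a shift of -0.03. The 2 genes thus differed between the groups by nearly the same factor.

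Among the endodermal markers, AT1G61590 encodes a receptor-like cytoplasmic kinase that acts at the Casparian strip. Its intensity was 355, 367 and 413 in the mock arrays and 587, 669 and 632 in the scutellarin arrays. Both groups were tight, with a coefficient of variation of 8.07% in mock and 6.48% with scutellarin, and the gap between the groups was 1.42 times. The means were 379 ± 30.6 and 629 ± 40.8 (SD, n = 3) and the log2 change was 0.73 ± 0.15 (SE), the smallest in size of the 7.

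AT3G22620 encodes a lipid transfer protein anchored at the cell surface. Its intensity was 377, 579 and 777 in the mock arrays and 1998, 1842 and 1571 in the scutellarin arrays. The mock arrays spread by 2.06 times between lowest and highest, the widest spread of the 7 genes, and the lowest scutellarin array stood 2.02 times above the highest mock array. The means were 578 ± 200.1 and 1804 ± 216 (SD, n = 3), and the log2 change was 1.70 ± 0.22 (SE). Without mock replicate 1 it was 1.42 and without mock replicate 3 it was 1.94. The log2 difference between AT3G22620 and AT1G61590 within an array was 0.09 to 0.91 in mock and 1.31 to 1.77 with scutellarin, so the 2 endodermal markers did not differ between the groups by the same factor on these arrays.

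AT5G66390 (PRX72), the marker of endodermis and stele, encodes a class III peroxidase, a secreted enzyme that couples lignin units in the wall. Its intensity was 224, 185 and 210.2 in the mock arrays and 556, 613 and 534 in the scutellarin arrays. It had the widest gap between the groups, at 2.39 times. The means were 206 ± 19.5 and 568 ± 40.6 (SD, n = 3), and the log2 change was 1.46 ± 0.16 (SE).

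AT5G51890, another class III peroxidase gene, is the xylem marker and is known from vessel lignification. Its intensity was 127, 98.5 and 187 in the mock arrays and 328, 322 and 377 in the scutellarin arrays. It was the dimmest of the 7 probe sets in mock, and its mock arrays had a coefficient of variation of 32.8% against 8.76% with scutellarin. The means were 137 ± 45.0 and 342 ± 29.98 (SD, n = 3) and the log2 change was 1.36 ± 0.23 (SE), between 1.15 without mock replicate 2 and 1.61 without mock replicate 3. With 32 added before log2, which damps dim values, the change was 1.17 for AT5G51890 and 1.33 for AT5G66390. Within an array, the log2 difference between AT5G51890 and AT5G66390 averaged -0.63 ± 0.40 in mock and -0.73 ± 0.21 with scutellarin (SD, n = 3), so the 2 peroxidase genes kept their ratio within the spread of the replicates.

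PYK10 was the brightest of the 7 probe sets. Its intensity was 5912, 6011 and 5349 in the mock arrays and 9663, 12583 and 12135.5 in the scutellarin arrays. Scutellarin replicate 1 was the lowest of its group and lay 1.61 times above the highest mock array. The log2 change was 0.99 ± 0.13 (SE), the smallest after that of AT1G61590. The log2 difference between PYK10 and AT1G61590 within an array was 3.69 to 4.06 in mock and 4.04 to 4.26 with scutellarin, so these ranges overlapped.

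Differences taken within an array do not depend on a scaling factor common to all probe sets of that array, though they can move under quantile normalization. Relative to the cortex marker AT1G62500, the shift in the log2 difference, scutellarin minus mock, was 1.89 for AT1G61590, 2.85 for AT3G22620, 2.62 for AT5G66390, 2.52 for AT5G51890 and 2.14 for PYK10. For AT3G22620 this difference was -1.23, -1.28 and -0.73 in mock and 1.92, 1.95 and 1.44 with scutellarin. The sign of the difference itself has no meaning, since the 2 probe sets need not respond equally to RNA, but its shift is a change in the ratio of the 2 signals by 7.22-fold. Each shift is the difference of 2 log2 changes given above. The genes were selected on those changes, so the shifts are a description and no separate result.

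**Figure D2:**
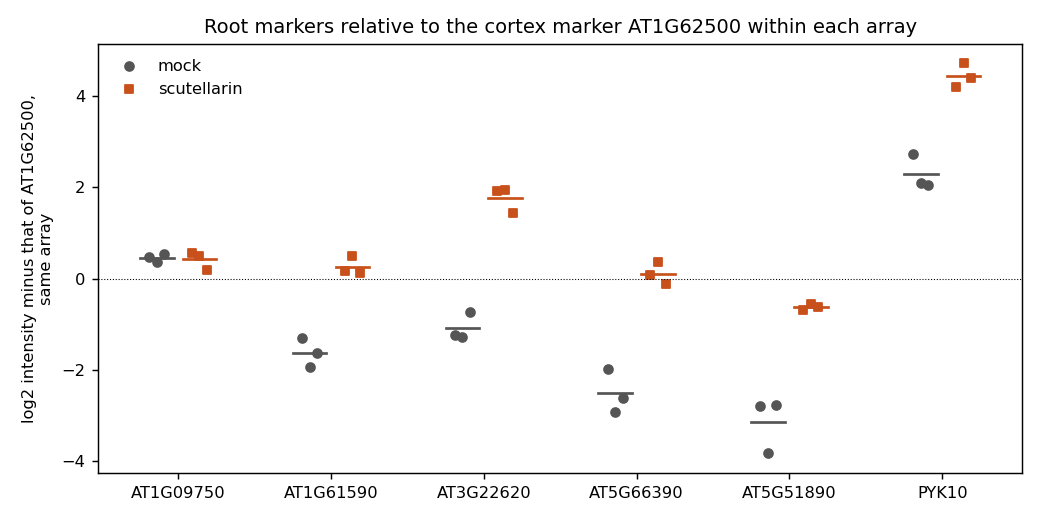
The log2 intensity of 6 markers minus that of AT1G62500 on the same array, with circles for mock, squares for scutellarin and bars at the group means. The other cortex marker AT1G09750 shows overlapping groups (shift -0.03), whereas the shifts of the other 5 lie between 1.89 and 2.85. The genes were selected on the changes that these shifts compare.

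Replicates of the 7 genes also differed among themselves. Mock replicate 1 lay below its group mean at 5 of the 7 genes and mock replicate 3 above it at 6, with mean log2 deviations of -0.19 and 0.20. In the scutellarin group each array lay above its group mean at 3 or 4 of the 7 genes, with mean deviations between -0.02 and 0.02. The coefficient of variation was larger in mock than with scutellarin at 6 genes, PYK10 being the exception (6.20% in mock, 13.7% with scutellarin).

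**Figure D3:**
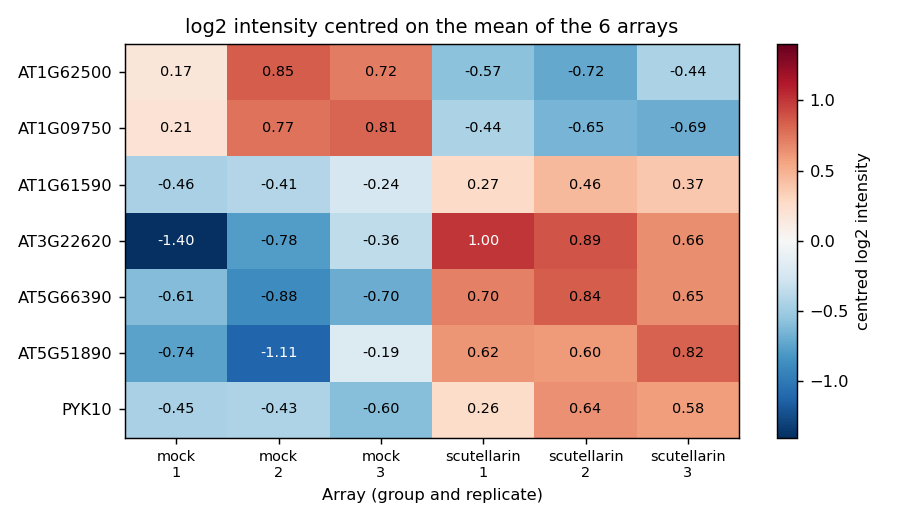
The log2 intensity of each of the 7 genes on each array, centred on the gene's mean over the 6 arrays (colour and printed value). The 2 cortex markers are positive in mock and negative with scutellarin, the other 5 genes run the opposite way, and AT3G22620 spans the widest range, from -1.40 to 1.00.

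Other genes of these tissues, and genes of root hairs and green tissue, were taken from 9 lists with 136 genes in all, 129 of them outside the 7 markers. Of these, 22 had a named probe set and 21 passed the filter, of which 7 rose, 7 fell and 7 were not called. Root hair genes made up 2 of the risen, and these passed the filter only through the scutellarin arrays. Green tissue genes made up 4 of the fallen. Over all probe sets tested, 10.3% were called higher and 9.11% lower. The lists were chosen with earlier results of these data known, so nothing is read from these counts. The lists of phloem and other stele genes and of root transporters had no named probe set. Counts over so few genes describe only the genes named, and the lists got no test of their own.

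Beside the 2 cortex markers, 3 of 4 other cortex genes were measured. AT1G62510 and AT3G21670 fell, AT5G02000 was not called, and the median log2 change of the 3 was -0.93. AT1G62510, the next gene to AT1G62500 in the genome and likewise coding for a lipid transfer domain protein, fell from 26804 ± 3278 to 14034 ± 929 (SD, n = 3), a log2 change of -0.93 ± 0.12 (SE, adjusted p = 0.000241). AT3G21670, a gene of the nitrate transporter family, had means of 1011 ± 52.1 in mock and 529 ± 109 with scutellarin (SD, n = 3) and fell by 0.96 ± 0.17 on the log2 scale (SE, adjusted p = 0.00187). The probe set of AT5G02000 was near the limit of the filter, at 34.5 ± 7.77 and 43.7 ± 11.4, with overlapping groups and a log2 change of 0.33 ± 0.44 (adjusted p = 0.650).

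Beside AT1G61590 and AT5G66390, 4 of 20 other Casparian strip genes were measured. Of these 3 rose, 1 failed the threshold, and the median log2 change was 0.80. AT4G11290, a peroxidase gene of the Casparian strip, read 35.9, 63.7 and 67.3 in the mock arrays and 282, 314 and 391 in the scutellarin arrays. It rose by 2.60 ± 0.28 on the log2 scale (SE, adjusted p = 5.57e-05). AT1G44970, a further peroxidase gene, had a log2 change of 0.74 ± 0.24 (adjusted p = 0.0479). This call was lost without any 1 array except mock replicate 3 (adjusted p = 0.0843 to 0.142), and with median centring, quantile normalization, no filter, no variance trend or the replicate block (0.0599 to 0.0910).

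The receptor kinase gene of this pathway, GSO1 (AT4G20140), read 90.3, 89.3 and 139 in mock and 198, 190.4 and 179 with scutellarin. Its log2 change was 0.86 ± 0.24 (SE, adjusted p = 0.0238), a call lost without any 1 array except mock replicate 3 (adjusted p = 0.0543 to 0.0865) and with no filter (0.0525). AT4G34600, which encodes a peptide ligand of that receptor, read 714, 621 and 629 in mock and 551, 779 and 726 with scutellarin. Its groups overlapped, and its log2 change was 0.05 ± 0.16 (adjusted p = 0.853).

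Beside AT3G22620, 1 of 21 other suberin genes was measured. It was AT2G48130, which also encodes a lipid transfer protein anchored at the cell surface, at 158, 178 and 154 in mock and 781, 827 and 765 with scutellarin. The arrays of each group lay close together and far from the other group. It rose by 2.28 ± 0.15 on the log2 scale (SE, adjusted p = 1.59e-06). Beside AT5G51890, 1 of 22 other xylem genes was measured, GUT2 (AT1G27440) of xylan synthesis, with a log2 change of 0.61 ± 0.24 (adjusted p = 0.0940) and groups that did not overlap.

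Beside PYK10, 5 of 18 other ER body genes passed the filter. Of these 1 rose, 1 fell and 3 failed the threshold, and the median log2 change was 0.39. JAL34 (AT3G16460), a jacalin-type lectin gene, rose from 4380.4 ± 199 to 7176 ± 828 (SD, n = 3), a log2 change of 0.71 ± 0.12 (SE, adjusted p = 0.00158). JAL22 (AT2G39310), another lectin gene, had a log2 change of -0.63 ± 0.16 (adjusted p = 0.0171), a call that leaving out mock replicate 2, mock replicate 3 or scutellarin replicate 1 removed (adjusted p = 0.0507 to 0.0714), as did a fit whose variance had no trend (0.0602). NAI1 (AT2G22770), the transcription factor gene needed for ER bodies, and NAI2 (AT3G15950), which encodes a structural protein of ER bodies, had log2 changes of 0.37 ± 0.20 and 0.54 ± 0.20 (adjusted p = 0.222 and 0.0800). NAI2 was called without mock replicate 1 or scutellarin replicate 1 (adjusted p = 0.0300 and 0.0366). JAL33 (AT3G16450) was at 0.39 ± 0.15 (adjusted p = 0.0884).

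**Figure D4:**
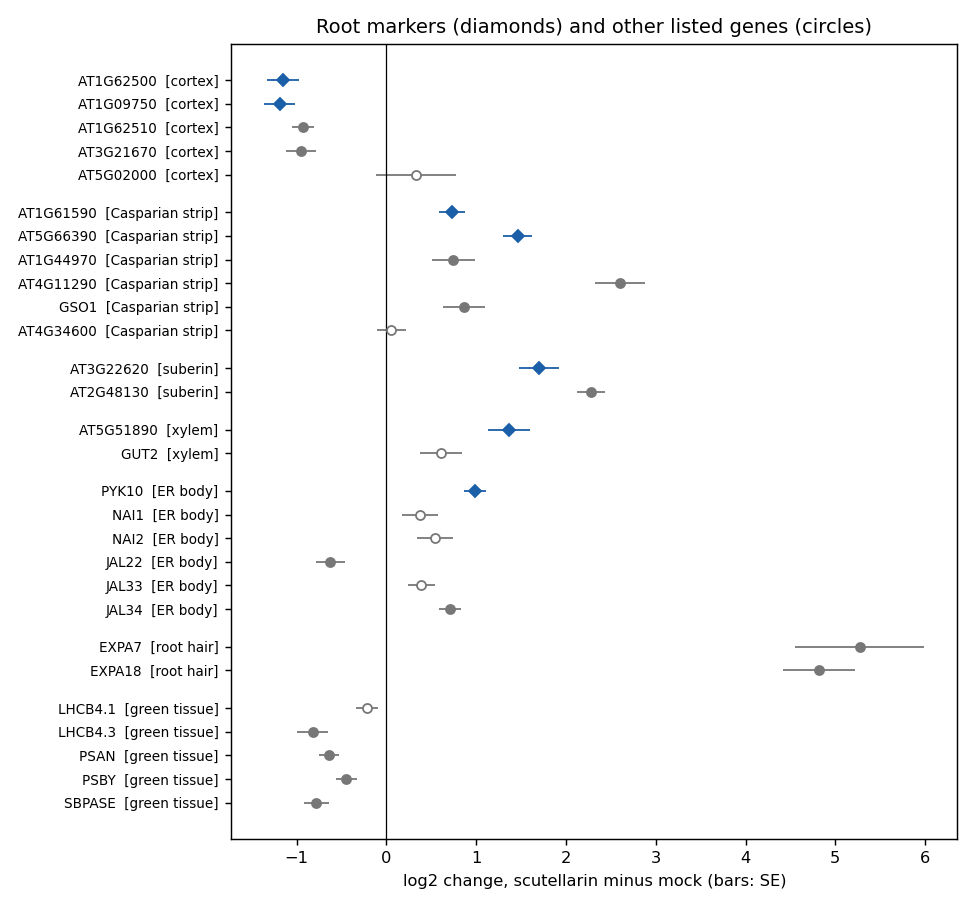
The log2 change, scutellarin minus mock, with its SE for the 7 root markers (diamonds) and the 21 other listed genes that passed the filter (circles), grouped by list. Filled symbols were called at an adjusted p under 0.05 and open circles were not; the cortex markers lie at -1.16 and -1.19 and the other 5 markers between 0.73 and 1.70.

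Markers of other tissues moved with the groups as well, and their part in the results above was not tested. Of 15 listed genes of green tissue, 5 were measured, and 4 of these fell, with a median log2 change of -0.64. PSAN (AT5G64040), of photosystem I, was at -0.64 ± 0.11, SBPASE (AT3G55800), of the Calvin cycle, at -0.78 ± 0.14, and LHCB4.3 (AT2G40100), of light harvesting, at -0.82 ± 0.17 (SE, adjusted p = 0.00189, 0.00200 and 0.00513). The fourth, PSBY (AT1G67740), of photosystem II, was at -0.45 ± 0.12 (adjusted p = 0.0190), and its call went when mock replicate 2 or 3 or scutellarin replicate 2 or 3 was omitted (0.0555 to 0.0749), after quantile normalization (-0.25, adjusted p = 0.152), with all dim probe sets kept (0.0800) or without the variance trend (0.0891). The fifth, LHCB4.1 (AT5G01530), of light harvesting, was not called, with a log2 change of -0.21 ± 0.12 (SE, adjusted p = 0.255) and 0.03 after quantile normalization. It was the brightest of the 5, at 22284 ± 306 in mock and 19387 ± 2832 with scutellarin (SD, n = 3). The summed intensity of the 5 genes was 71832 to 73685 in mock and 48339 to 60121 with scutellarin, and none of them was at the floor of the scale on any array. Of 9 listed root hair genes, 2 were measured, EXPA7 (AT1G12560) and EXPA18 (AT1G62980), expansin genes of root hairs, and both were called as higher. Their mock means of 10.3 and 18.1 lay below the filter, which cut at a geometric mean intensity of 34.8, so both passed it only through the scutellarin arrays, where they were high, and their count is no support. The filter of 50% removed both genes, and EXPA7 also dropped below the 30% filter when any scutellarin array was left out. Their summed intensity was 16.5 to 37.9 in mock and 619 to 864 with scutellarin, and neither was at the floor on any array.

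The genes most like each marker were sought by the root mean square difference of log2 intensities over the 6 arrays, each probe set centred on its own mean, among 8661 other probe sets with 1 named gene. The nearest to AT1G62500 was bZIP58 (AT1G13600), a transcription factor gene, at 0.06, followed by the other cortex marker AT1G09750 at 0.13. The nearest to AT1G09750 was AT1G49750 at 0.11, followed by AT1G62500. AT3G22620 was nearest to AT1G74460, a GDSL-type lipase gene, and to the expansin gene EXPA9 (AT5G02260), at 0.11 and 0.12.

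AT5G66390 was nearest to AT1G04680, a pectate lyase gene, at 0.08 and AT2G03200, an aspartyl protease family gene, at 0.09. AT5G51890 was nearest to AT1G76240 and AT5G43040 at 0.11 and 0.15, PYK10 to AT1G16000 and AT4G35410 at 0.05 and 0.07, and AT1G61590 to AT2G40360 and AT2G29995, both at 0.06. Many probe sets were about as near. Within 0.25 lay 13 probe sets for AT3G22620, 33 for AT5G51890, 53 for AT1G09750, 59 for AT1G62500, 83 for AT5G66390, 241 for PYK10 and 785 for AT1G61590. Of the 14 nearest genes, 5 to 9 stayed among the nearest 2 when 1 array was left out. The measure largely follows the size of the change between the groups.

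Among the markers themselves, the cortex pair was the most alike, at 0.13, followed by PYK10 and AT1G61590 at 0.19 and AT5G51890 and AT5G66390 at 0.27. The endodermal pair AT3G22620 and AT1G61590 stood 0.56 apart. Each cortex marker was at least 0.969 from each of the other 5 genes. The measure takes in the contrast on which the genes were selected, so this distance is no separate result.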

How the data were processed

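Each deposited value is the linear intensity of a probe set on an array. The authors computed these intensities with MAS5, per the submitters' processing notes, which name neither its version nor its options. There were 22746 probe sets and 6 arrays. The minimum was 1 on every array, medians were 144.8 to 162.3, and means without 2% of values at each end were 493.9 to 495.1, so the arrays share a scale. Detection calls were not used here. A platform table updated through the RefSeq gene table (TAIR10.1) named 1 gene for 13513 probe sets (13436 matched), several for 503 and none for 8730. Coordinates are left out because no build is stated for the array, and no sequences were used.

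Intensities were log2-transformed. The lowest 30% of probe sets by mean were left out (15923 kept), and the groups were contrasted by limma 3.58.1 under R 4.3.3 (lmFit, eBayes with a variance trend, two-sided, Benjamini-Hochberg over all probe sets kept), which was checked on simulated data. A gene was said to rise or fall at an adjusted p under 0.05, and a gene with several probe sets was taken by its brightest. Precision is limited by having 3 arrays in each group. The 7 markers and the gene lists were chosen with earlier results of these data known. The genes named were the 7 markers, in each list up to 3 risen and 3 fallen genes with the largest changes, and the 2 nearest genes by pattern. AT5G02000, AT4G34600, GUT2, NAI1, NAI2, JAL33, PSBY and LHCB4.1 were named outside this rule, after their values were seen. Other settings tried were a replicate block, each array omitted in turn, quantile and median scaling, a filter of 0% or 50%, an offset of 32 on intensities, variance priors that were robust or without trend, only probe sets with no cross-hybridisation suffix, and a gene's dimmest probe set. Figures used matplotlib 3.10.9.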

Additional observations from a re-analysis of the deposited data

How the results depend on the processing

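No marker change or list median turned its sign under any alternative run, and all 7 markers stayed called (5 higher, 2 lower) under each. The markers were selected on the contrast of scutellarin with mock, so nothing is read from their calls. Their groups did not overlap, so leaving out an array could not turn a marker's sign. Of 105 alternative values of the markers' log2 changes, 104 moved by less than 1 SD of the replicates, the exception being AT5G66390 with 32 added before log2 (1.33). Most of these values could not have moved further. The filters, variance priors, replicate block and cross-hybridisation limit leave a log2 change as it is, and leaving out 1 of 3 arrays cannot shift it by 1 SD. Only the quantile and median scalings and the offset of 32 could have done so. Without 1 array the changes were -1.36 to -1.02 for AT1G62500, -1.38 to -1.08 for AT1G09750 and 0.913 to 1.104 for PYK10. Arrays with the same replicate number were treated as unpaired in the main fit, as the sample titles do not say whether they belong together. Deviations of same-numbered arrays correlated at -0.04, -0.09 and 0.11, and those of differently numbered arrays were not compared. The replicate block called 2923 probe sets, 2777 shared with the 3094 of the fit without it, and kept all 7 markers. Without 1 array 2035 to 2836 probe sets were called, the lowest without mock replicate 2, and 801 to 1450 as lower, while 862 were lower with no variance trend. Median centring gave 46.8% higher among calls instead of 53.1%. In the Casparian strip list, 1 gene rose with the lowest 50% left out (median 0.40) and 1 with no filter, and 1 to 3 without 1 array; the 50% filter removes 2 of its genes. Without 1 array, 1 to 2 ER body genes rose and 0 to 1 fell, JAL22, which also was not called with no variance trend, where 0 fell. The 50% filter left no root hair gene, and 1 to 2 rose without 1 array, since EXPA7 falls under the filter without any scutellarin array. With 32 added, the medians were 3.04 for root hair and 2.08 for suberin, as this damps dim values, and after quantile normalization the green tissue median was -0.46; the cause was not tested. Of the 14 nearest genes by pattern, 5 to 9 stayed without 1 array.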

Other observations

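The genes next to the 7 markers were also read where the array named them. Of 14 neighbouring protein-coding genes, 6 had a named probe set and 4 passed the filter. Only AT1G62510, beside AT1G62500, was called among these 4, where 19.4% of all probe sets tested were called. It is the cortex list gene described above, so its call is no separate result. AT1G09740, beside the cortex marker AT1G09750, had a log2 change of 0.29 ± 0.13 (SE, adjusted p = 0.137 in limma), opposite in sign to that of its neighbour. AT5G51880, beside the xylem marker AT5G51890, was at -0.02 ± 0.12 (adjusted p = 0.920), and AT3G09250, beside PYK10, was at -0.45 ± 0.16 (adjusted p = 0.0723). These neighbours were looked up after the data had been seen.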
